A study of Mus musculus with 4 samples.

Results

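Mediator is the large complex that carries signals from DNA-bound transcription factors to RNA polymerase II at promoters. Its head and middle modules contact the polymerase, Med14 joins them to the tail as a scaffold, and the tail holds most of the surfaces that activators bind. A separable kinase module, built on Cdk8 or Cdk19 with cyclin C, Med12 and Med13 or their paralogs, docks on the middle module and regulates the access of the polymerase. Med23 is a tail subunit known as a docking site for the Ets factor Elk1, and in T cells the complex serves the genes that antigen receptor signals switch on.

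The Mediator subunits were followed here in a mouse experiment in which Med23 itself was the targeted gene. The members were the 33 named mouse subunits, found through array probes whose RefSeq transcript accession carries a member's symbol. Of the 33, 32 were on the array, through 50 probes, out of 19896 named genes, and Med6 had no matched probe. The RNA came from CD4 T cells of lymph nodes of male mice aged 7 weeks, either wildtype or Med23 knockout, and the cells were kept unstimulated or stimulated for 6 h. The design names the T cell receptor (TCR) as the stimulated pathway and asks which induced genes depend on Med23. The allele, any Cre driver, the way the CD4 cells were isolated, the stimulating agent and the number of mice behind an array were not stated by the sources available. Each group, of 4, had a single 1-colour array, so no difference below has a replicate check and none was tested. A count of genes 2-fold higher or lower takes those past a log2 difference of 1, and elsewhere the words higher and lower only order the arrays. Because the RNA came from bulk cells, fewer cells of a type and less RNA per cell cannot be told apart.

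Values are levels or differences of levels on the log2 scale. A level is the log2 signal minus the 75th percentile of its array, averaged over the probes of a gene, and can be compared between arrays but not between genes. Levels were not allowed below a floor of -5.01. Among probes printed as 10 spots, differences between arrays had a spot-to-spot SD of 0.0964 to 0.109 for levels above 1, 0.136 to 0.217 between -1 and 1, 0.378 to 0.469 between -3 and -1, and 0.59 to 0.816 between the floor and -3. These SDs leave out any spread between mice or cultures. Of the 32 members, 31 lay above the floor in all 4 arrays, and Med12l did so in 1.

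One array stood apart from the other 3. The stimulated wildtype array was 2.05 to 2.79 times as bright, and it carried RNA of other cell types. Its summed signal of 8 neutrophil genes, as a log2 level, was 7.82, against 1.26 to 1.62 in the other arrays, and all 8 were at least 2-fold higher there than in the unstimulated wildtype array. The summed signal of 4 erythroid genes was 6.92 there against -0.62 to -0.42, and that of 8 monocyte and dendritic genes 3.14 against 0.00 to 0.53. The 8 T cell markers, which include Cd3e and Cd4, summed to 8.85 in that array and to 9.02 to 9.59 in the others, and none was at the floor in any array. Natural killer cell genes were at or near the floor throughout. Of the pair of CD8 genes, Cd8a ranged from -4.99 to -4.20, while Cd8b1 was at -0.55 and -2.58 in unstimulated and stimulated wildtype cells and at -0.54 and -1.53 in the labelled knockout. The summed signal of 5 B cell genes was -0.19 and -0.82 in wildtype and 0.65 and -0.57 in the labelled knockout, in the same order. The stimulation difference in wildtype, the genotype difference in stimulated cells and the difference between the stimulation differences all use this array, and the part that the other cell types play in them was not tested. The labelled knockout's own stimulation difference and the unstimulated genotype difference do not use it. Stimulation itself registered in both genotypes, where all 8 of the TCR response genes checked were more than 2-fold higher, with median differences of 2.88 in wildtype and 4.15 in the labelled knockout.

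Promoters of 28 members were listed in RefSeq (build GRCm38.p6), and the 250 bases before each start were searched. Med7, Med14 and Med29, 3 of 31 members, were past 1.5-fold higher after stimulation in both genotypes, where 13.6% of all genes were. Of these only Med29 did so however the values were processed. Med31 differed most between the genotypes in its response, by 1 probe. The sequences of these 4 members are shown. They run 5′ to 3′ on the gene's strand, and capitals mark matches, on either strand, to the Ets core CCGGAA, the CCAAT box CCAAT and the cAMP response element core TGACGT.
Med7, chr11:46436697-46436946, plus strand: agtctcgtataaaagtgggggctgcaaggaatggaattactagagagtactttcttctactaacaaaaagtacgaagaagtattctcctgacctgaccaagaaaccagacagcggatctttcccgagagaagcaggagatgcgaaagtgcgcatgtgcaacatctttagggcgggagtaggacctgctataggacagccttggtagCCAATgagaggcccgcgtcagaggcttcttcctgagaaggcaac
Med31, chr11:72215593-72215842, minus strand: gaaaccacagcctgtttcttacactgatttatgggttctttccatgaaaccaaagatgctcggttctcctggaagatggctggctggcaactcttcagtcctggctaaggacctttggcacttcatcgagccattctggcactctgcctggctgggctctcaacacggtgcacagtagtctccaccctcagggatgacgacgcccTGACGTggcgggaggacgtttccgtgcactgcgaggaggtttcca
Med14, chrX:12761974-12762223, minus strand: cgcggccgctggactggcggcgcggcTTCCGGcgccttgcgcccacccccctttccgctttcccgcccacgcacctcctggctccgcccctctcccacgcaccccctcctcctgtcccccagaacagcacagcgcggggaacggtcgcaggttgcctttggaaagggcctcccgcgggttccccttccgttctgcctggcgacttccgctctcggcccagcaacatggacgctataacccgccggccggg
Med29, chr7:28392691-28392940, minus strand: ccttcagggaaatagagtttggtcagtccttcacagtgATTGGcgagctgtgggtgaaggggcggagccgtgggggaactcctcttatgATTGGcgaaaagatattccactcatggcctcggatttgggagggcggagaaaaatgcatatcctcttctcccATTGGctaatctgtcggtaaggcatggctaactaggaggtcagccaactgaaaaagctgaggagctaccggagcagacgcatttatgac
Med29 held 3 CCAAT matches, all on the reverse strand, beginning 212, 161 and 89 bases before the start. Med7 held 1 CCAAT match, 44 bases before the start, and Med31 1 match to TGACGT, 45 bases before it. The match to the Ets core in Med14 began 224 bases before the start and lay on the reverse strand.

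Over all members the promoters were rich in G and C, with a median of 56.8% and 18 CpG dinucleotides, against 52% and 6 over 27025 listed genes. The GC box GGGCGG, the letters bound by Sp and Klf factors, was found in 18 of 28 members (64.3%), against 32.9% of all genes. The Ets core, the letters that Elk1 and its relatives bind, was in 7 of 28 (25%), against 12.2% of all genes: Med17, Med20, Med4, Med19, Med14, Med12 and Ccnc. CCAAT was in 11 of 28 (39.3%, against 34.5%), TGACGT in 4 (14.3%, against 6.56%), the TATA box TATAAA in 3 of 28 (against 13%) and the E box CACGTG in 2 (7.14%, against 6.05%). The Nrf1 motif GCGCATGCG was in 2, Med4 and Med15 (7.14%, against 1.49%), and the Yy1 motif AAGATGGCG in 0 (against 0.607%). All motifs were searched on both strands. Matches shared bases in Med28 (TATAAA with CCAAT), Med21 (TGACGT on both strands) and Med13 (neighbouring GC boxes). A match describes the letters and is not a bound site.

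The targeted gene checks the labels. Med23, read by 1 probe, had a level of -1.59 in unstimulated and -0.75 in stimulated wildtype cells, and of -1.66 and -2.29 in the unstimulated and stimulated cells of the labelled knockout. The unstimulated levels lay within the spot noise of each other, and only the stimulated pair was apart. The genotype difference was -0.07 without stimulation and -1.54, or 2.91-fold lower in the labelled knockout, with stimulation. The stimulation difference of Med23 was 0.84 in wildtype and -0.63 in the labelled knockout. Spot noise at this level has an SD of 0.378 to 0.469. The unstimulated pair thus goes against the label, and the place of the probe relative to the deleted part of the gene is not known, so the probe may check nothing. Hence the term "labelled knockout" in what follows, where each direction between genotypes rests on the labels. Against the median of the other subunits in the same comparison, the Med23 genotype difference was -0.10 without and -1.87 with stimulation.

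**Figure D1:**
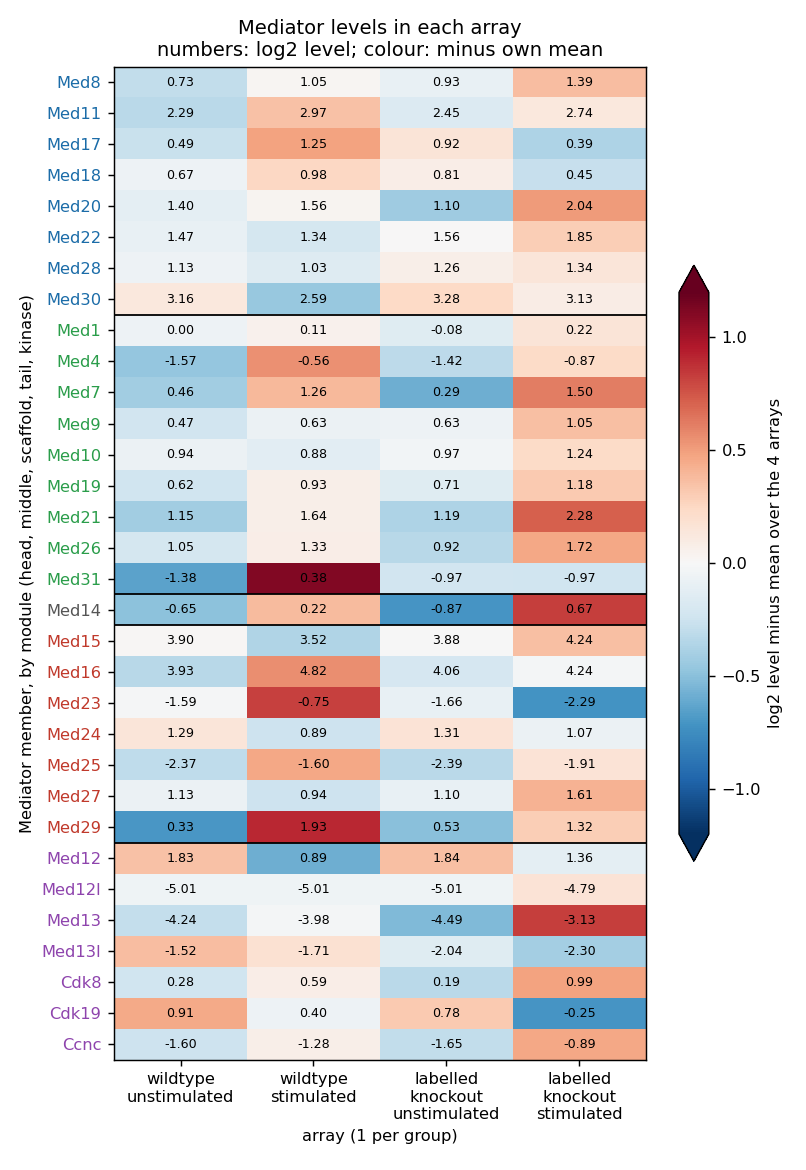
Log2 level of the 32 Mediator members on the array (vertical, coloured and ordered by module) in each of the 4 arrays (horizontal, 1 per group); printed numbers are levels, which cannot be compared between genes, and colours give each level minus the member's mean over the 4 arrays. Med31, Med23 and Med29 are highest in the stimulated wildtype array, at 0.38, -0.75 and 1.93, and Med14 and Med21 in the stimulated labelled knockout array, at 0.67 and 2.28.

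In wildtype cells, stimulation left most subunits within 2-fold, and the 3 past it were middle and tail subunits. The median difference of 31 measured members was 0.31, against -0.02 over 14619 genes. Of the 31, 3 were 2-fold higher, Med31, Med29 and Med4, where 14.2% of all genes were, and 0 were 2-fold lower, where 12.8% were. In the labelled knockout the median of 32 members was 0.33, against 0.05 over 14229 genes. There 4 members were 2-fold higher, Med14, Med13, Med7 and Med21 (13.5% of all genes), and 1 was 2-fold lower, Cdk19 (13.8%). The shares of members called higher, 3 of 31 and 4 of 32, are near these backgrounds, and those called lower, 0 and 1, are below them. The members also spread less than genes in general, with SDs of their differences of 0.607 in wildtype and 0.595 in the labelled knockout, against 1.11 and 1.07 over all genes. By the median absolute difference the gap was smaller, 0.374 against 0.563 in wildtype and 0.471 against 0.551 in the labelled knockout. All genes include dim ones, where spot noise is larger.

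Past 1.5-fold in both genotypes, 3 members were higher, Med7, Med14 and Med29, where 13.6% of all genes were, and 0 were lower, where 14.9% were. Of these only Med29 passed under every alternative setting. Med4 stood in place of Med7 with scaling to the array median, and in place of Med14 by the brightest probe. By sign alone, 17 of the 31 members were higher in both genotypes, 5 were lower in both and 9 differed in sign, so 71% kept the sign, against 69.2% of all genes. Pearson's r between the 2 stimulation differences was 0.34 over 31 members and 0.61 over 13618 genes. Genes are not independent replicates, and each genotype's points share the same pair of arrays, so both are descriptions.

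**Figure D2:**
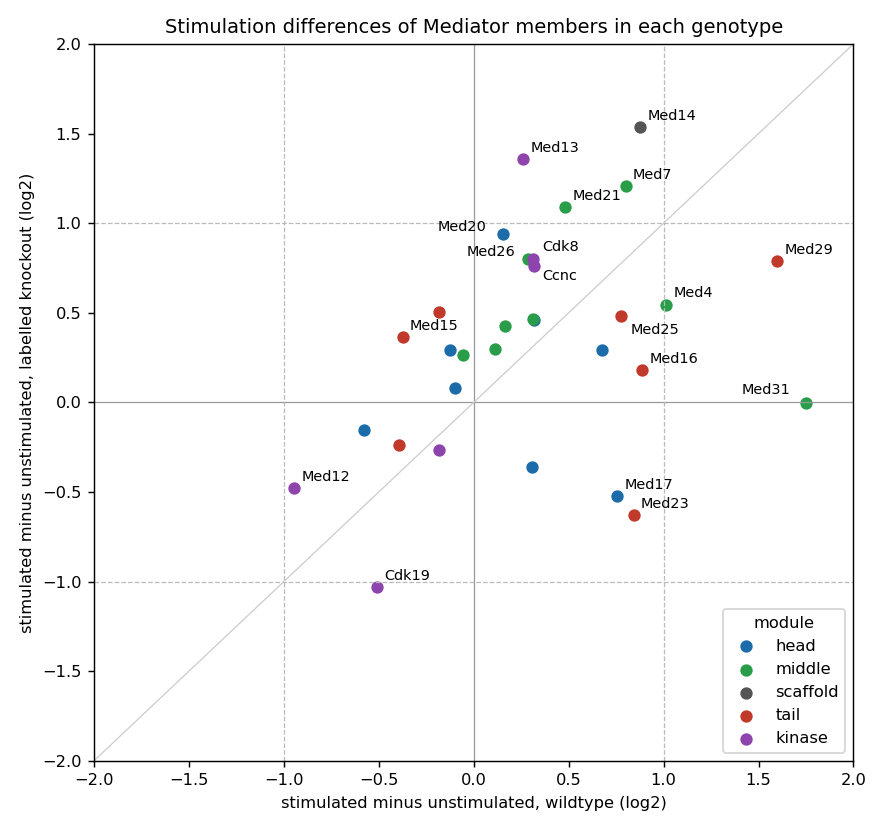
Stimulated minus unstimulated log2 difference of the 31 members measured in both genotypes, wildtype (horizontal) against labelled knockout (vertical), 1 point per member, coloured by module; dashed lines mark 2-fold and the diagonal equal differences. Med14, Med7 and Med29 lie in the upper right, Med31 lies far to the right at a height of 0, and Med17 and Med23 lie in the lower right.

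Med14, the scaffold that holds head, middle and tail together, had levels of -0.65 and 0.22 in unstimulated and stimulated wildtype cells and of -0.87 and 0.67 in the labelled knockout. Both stimulated arrays were above both unstimulated arrays. The difference was 0.88 in wildtype and 1.54, or 2.90-fold, in the labelled knockout, which put it at the 93.7th percentile of all genes. Its 3 probes all read higher after stimulation in both genotypes, but by unequal amounts, spanning 0.08 to 2.19 in wildtype and 0.84 to 2.23 in the labelled knockout.

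The middle module, which transmits contacts through the complex to the polymerase, had 9 measured members, of which 8 were above 0 in each genotype. Its medians were 0.31 in wildtype and 0.46 in the labelled knockout, against -0.02 and 0.05 over all genes. With scaling to the array median, Med1 and Med9 also fell below 0 in wildtype, Med9 to -0.09. Med7 and Med21 form the hinge of this module in yeast. Med7 had levels of 0.46 and 1.26 in wildtype and 0.29 and 1.497 in the labelled knockout, unstimulated then stimulated, and differences of 0.80 and 1.21. Its stimulated arrays were both above its unstimulated ones, and its 2 probes were higher in each case. Med21 had levels of 1.15 and 1.64 in wildtype and 1.19 and 2.28 in the labelled knockout, with differences of 0.48 and 1.09. Here too both stimulated arrays were the higher ones, with the labelled knockout highest.

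Med4, another middle subunit, had levels of -1.57 and -0.56 in wildtype and -1.42 and -0.87 in the labelled knockout. Its difference of 1.01 in wildtype is just past 2-fold and rests on a dim probe at 1.34, beside a brighter probe at 0.69. With the other settings tried, the wildtype value ran from 0.35 to 1.01 and passed 2-fold in 1 of 7, so the call is not a firm one. The members just past the 2-fold rule were Med4 at 1.01 and Cdk19 at -1.03, and those just inside it were Med12 at -0.94 in wildtype and Med20 at 0.94 in the labelled knockout.

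Med31 is a small middle subunit that binds Med7 and is among the most conserved of the complex. Its single probe read -1.38 in unstimulated and 0.38 in stimulated wildtype cells, and -0.97 in both arrays of the labelled knockout. Only the stimulated wildtype array was high, and it is the array that carries neutrophil and erythroid RNA. The part of that RNA in the Med31 value was not tested. The difference in wildtype was 1.75, or 3.37-fold, at the 94.5th percentile of all genes, and the difference in the labelled knockout was -0.00. The other middle members were closer to 0 in wildtype, from -0.06 for Med10 to 0.31 for Med19, and their labelled knockout differences ran from 0.27 for Med10 to 0.80 for Med26, the subunit that recruits elongation factors. Med1, which binds nuclear receptors, had a mean difference of 0.11 in wildtype, but its 4 probes ran from -0.87 to 1.22 there.

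The tail, which holds Med23, had a median of 0.78 over 7 members in wildtype and 0.37 in the labelled knockout. The wildtype median has no settled direction: it was -0.099 in the authors' table, which lacks 1 of the 2 disagreeing Med16 probes. Med29, which sits between tail and core, had levels of 0.33 and 1.93 in wildtype and 0.53 and 1.32 in the labelled knockout. Both stimulated arrays were above both unstimulated ones, and the stimulated wildtype array was highest. Its difference was 1.60, or 3.03-fold, in wildtype and 0.79 in the labelled knockout. The 2 Med29 probes gave nearly the same values, 1.62 and 1.58 in wildtype and 0.79 and 0.79 in the labelled knockout.

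The other tail members did not move as one. None of those that follow passed 2-fold. Med25, which binds acidic activators, differed by 0.78 and 0.48 in wildtype and labelled knockout, and Med24, which neighbours Med23 in the tail, by -0.40 and -0.24. Med15, a subunit that binds sterol response factors, was at -0.37 in wildtype and 0.37 in the labelled knockout, and Med27 at -0.18 and 0.50. Med16, singled out after its values were seen, had a mean difference of 0.89 in wildtype from 2 probes that disagree: 1 read levels of 6.11 and 8.002 in unstimulated and stimulated wildtype cells and 6.52 and 6.37 in the labelled knockout, and the other read 1.74, 1.63, 1.60 and 2.12 in the same order. Only the first had the stimulated wildtype array high, so no direction is given for Med16.

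Head subunits, which contact the polymerase and the initiation machinery, had medians of 0.23 in wildtype (-0.019 when scaled to the array median) and 0.19 in the labelled knockout over 8 members, and 0 were past 2-fold in either. In wildtype the range was -0.58 for Med30 to 0.76 for Med17, the central subunit of the head. In the labelled knockout it was -0.52 for Med17 to 0.94 for Med20, which with Med18 forms the movable jaw of the head. Med17, the end of both ranges in opposite directions, had levels of 0.49 and 1.25 in wildtype and 0.92 and 0.39 in the labelled knockout, and was singled out after its values were seen. The stimulated wildtype array was its highest and the stimulated labelled knockout array its lowest. Med18 had differences of 0.31 and -0.36. Med11 and Med8 were above 0 in both genotypes (0.68 and 0.29, 0.32 and 0.46) and Med30 below 0 in both (-0.58 and -0.15). Med22 and Med28 lay near 0 in wildtype (-0.12 and -0.10) and above it in the labelled knockout (0.29 and 0.08), and the 3 probes of Med28 disagree.

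In the kinase module the paralogs Cdk8 and Cdk19, its alternative kinases, differed in opposite directions. Cdk8 had levels of 0.28 and 0.59 in wildtype and 0.19 and 0.99 in the labelled knockout, unstimulated then stimulated. Cdk19 had levels of 0.91 and 0.40 in wildtype and 0.78 and -0.25 in the labelled knockout. In both genotypes the stimulated array was the higher one for Cdk8 and the lower one for Cdk19. The differences were 0.31 and 0.80 for Cdk8 and -0.51 and -1.03 for Cdk19, so that the Cdk8 difference exceeded the Cdk19 difference by 0.82 in wildtype and 1.83 in the labelled knockout. The labelled knockout pair had the larger split. The wildtype value uses the stimulated wildtype array, and the part of its other cell types in that value was not tested. Of the 3 Cdk8 probes, all were higher in the labelled knockout (0.61 to 1.06), while in wildtype 2 were higher and 1 was at -0.08. Ccnc, the cyclin of both kinases, had differences of 0.32 and 0.76.

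Med12, which activates the kinase, had levels of 1.83 and 0.89 in wildtype and 1.84 and 1.36 in the labelled knockout. It was lower in both stimulated arrays, with differences of -0.94 and -0.48, and both of its probes read that way. Its paralog Med12l was at the floor in 3 arrays and at -4.79, barely above it, in the stimulated labelled knockout. Med13, which links the module to the core complex, had levels of -4.24 and -3.98 in wildtype and -4.49 and -3.13 in the labelled knockout. It is dim in every array, so its difference of 1.36 in the labelled knockout stands beside a spot noise SD of 0.647. Its paralog Med13l had levels of -1.52 and -1.71 in wildtype and -2.04 and -2.30 in the labelled knockout, with differences of -0.18 and -0.26.

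Without stimulation, the genotypes were close across the complex. The median genotype difference, labelled knockout minus wildtype, was 0.02 over 31 members, against -0.02 over 14008 genes, and values ran from -0.51 for Med13l to 0.42 for Med17. Of the 31, 0 were 2-fold higher and 0 were 2-fold lower, where 3.31% and 1.42% of all genes were. The SD over members was 0.194, against 0.482 over all genes, and the median absolute difference 0.130, against 0.184. Neither of these arrays has the high neutrophil and erythroid signal, but other foreign markers differ between them. The labelled knockout was above wildtype in 4 of 5 B cell genes (median 0.67) and in 7 of 7 measured monocyte and dendritic genes (median 0.53), and the part of these cells in the member values was not tested.

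With stimulation the members spread apart, with an SD of 0.606 against 0.884 over all genes, a median absolute difference of 0.459 against 0.413, and a median of 0.28 against 0.09. Of 32 measured, 0 were 2-fold higher, where 4.98% of all genes were, and 2 were 2-fold lower, Med23 and Med31, where 8.13% were. Med31 was 2.54-fold lower in the labelled knockout (-1.35, the 4.89th percentile of all genes) and Med23 2.91-fold lower (-1.54, the 3.80th percentile). A lower value in this pair was therefore not shown by Med23 alone. Past 1.5-fold in both states, 0 members were higher and 0 were lower, where 2.19% and 1.26% of all genes were. By module the stimulated medians were 0.33 for the head, 0.24 for the middle, -0.31 for the tail and 0.40 for the kinase module. The tail median turned to 0.12 in the authors' table, so its direction is not settled either. Among tail members inside 2-fold, Med29 was at -0.61, Med25 at -0.31, Med15 at 0.72 and Med27 at 0.67.

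**Figure D3:**
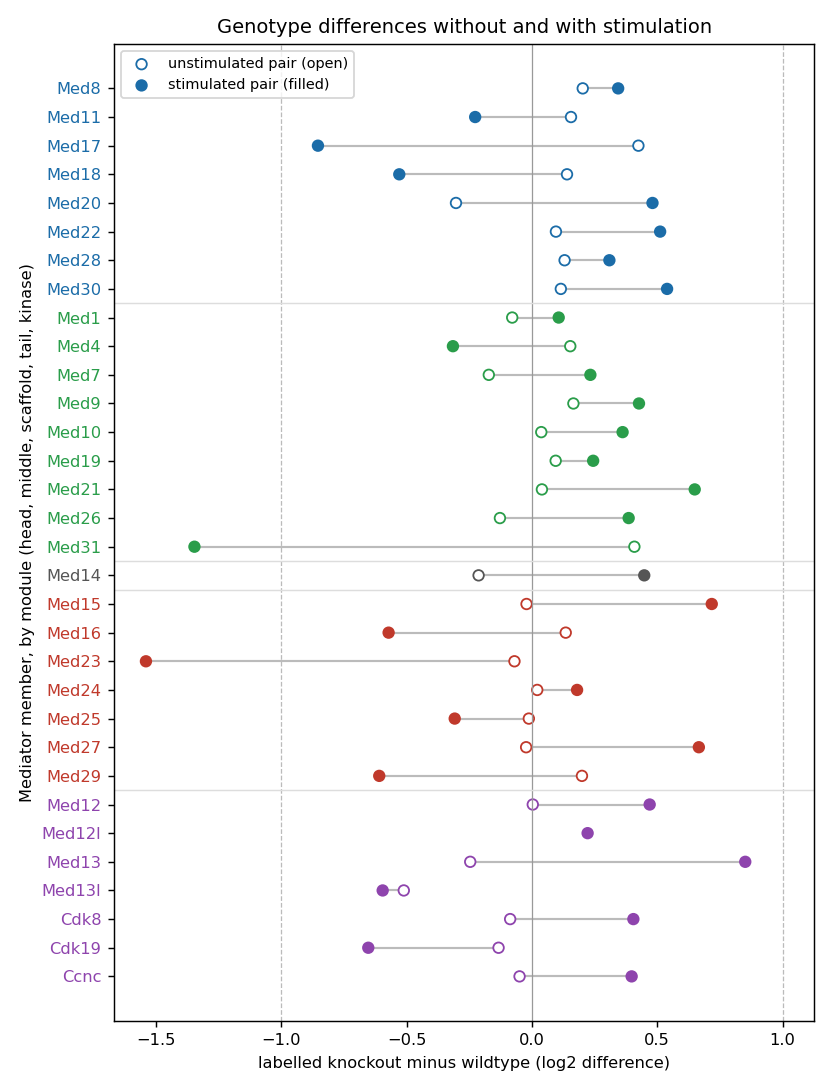
Labelled knockout minus wildtype log2 difference (horizontal) of each member (vertical, ordered and coloured by module) in the unstimulated pair (open) and the stimulated pair (filled); dashed lines mark 2-fold, and Med12l has no unstimulated value because both arrays were at the floor. The open points lie between -0.51 and 0.42, and of the filled points Med23 (-1.54) and Med31 (-1.35) lie past 2-fold.

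The difference of the stimulation differences, labelled knockout minus wildtype, asks directly whether the response differed. Its median was 0.20 over 32 members, against 0.09 over 15230 genes. Of the members, 1 was 2-fold higher, the dim Med13 (1.10), where 7.07% of all genes were, and 3 were 2-fold lower, Med31 (-1.76), Med23 (-1.47) and Med17 (-1.28), where 10.6% were. Relative to the median of the other members, Med31 was at -1.98 and Med23 at -1.69. All 3 lower members, 1 each of the middle, tail and head, had the stimulated wildtype array highest. A strongly negative value of this difference picks members high in that array, so the pattern is partly fixed by the selection.

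Other parts of the transcription machinery give a scale for these values, to be read against the 14.2% of all genes 2-fold higher and 12.8% lower in wildtype, and the 13.5% and 13.8% in the labelled knockout. Of 10 measured RNA polymerase II subunits, 3 were 2-fold higher and 1 lower after stimulation in wildtype (median 0.57), and 2 were 2-fold higher and 0 lower in the labelled knockout (median 0.67), led in both by Polr2h, at 1.54 and 1.59. Polr2g was the lower one in wildtype (-1.34). Of 18 general initiation factors, which assemble the polymerase at the start site, 3 were 2-fold higher and 0 lower in each genotype (medians 0.50 and 0.63). Gtf2f1 and Gtf2f2, the subunits of TFIIF, were highest in wildtype, both at 1.49, and Gtf2h2 of TFIIH in the labelled knockout at 1.48. Of 12 TFIID subunits, 1 was 2-fold higher in each, Taf13 (1.52) in wildtype and Taf10 (1.09) in the labelled knockout, with medians of 0.27 and 0.50. These medians lie beside 0.31 and 0.33 for Mediator. Taf13 is dim, with levels of -3.75 and -2.23 in unstimulated and stimulated wildtype cells from 1 probe. Spot noise between the floor and -3 has an SD of 0.816 in this comparison.

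Of the pausing and elongation factors, 4 of 23 were 2-fold higher in wildtype (median -0.05), where 14.2% of all genes were, and 5 of 24 in the labelled knockout (median 0.30), where 13.5% were. In both genotypes 0 were 2-fold lower, against 12.8% and 13.8%. Mllt1, a subunit of the super elongation complex, was at 1.98 in wildtype and 1.22 in the labelled knockout. Ell2, an elongation factor of the same complex, had the highest difference of these factors in the labelled knockout, 1.39, and Larp7, which holds the inhibitory 7SK RNA, was at 1.38.

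Among 9 factors and targets tied to Med23, 2 were 2-fold higher and 0 lower in wildtype (median 0.43), against 14.2% and 12.8% of all genes. In the labelled knockout 3 were 2-fold higher and 2 lower (median 0.60), against 13.5% and 13.8%. Egr2, an immediate early factor of TCR signalling, was 2-fold higher in both, by 3.29 on the log2 scale in wildtype and 4.06 in the labelled knockout. Egr1, a classic target of Med23 and Elk1, had levels of 3.22 and 5.10 in wildtype and 2.04 and 4.65 in the labelled knockout. Its stimulation difference was 1.88 in wildtype and 2.60 in the labelled knockout, and its genotype difference without stimulation was -1.18. Klf2, which holds naive T cells quiescent, differed by -0.98 in wildtype, inside 2-fold, and by -1.62 in the labelled knockout, and Elk3, a relative of Elk1, by -0.90 and -1.51.

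Most of the 2-fold differences of single members kept their size when the values were processed in other ways. Med31 and Med29 in wildtype, Med7 and Med14 in the labelled knockout, and Med23 and Med31 in the stimulated genotype pair passed 2-fold under all 7 alternatives. Med21 and Cdk19 in the labelled knockout passed in 5 of 7. Med13, with no value in the authors' table or above the higher floor, passed in 4 of 5 in the labelled knockout, and Med17 in the difference of stimulation differences in 6 of 7. The 7 alternatives are not separate checks. Med31, Med23, Med21, Cdk19 and Med17 each have a single probe that lies above the lower and higher floors. For these the floors and the brightest probe could not change the value. The authors' table also lay close to quantile normalization.

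**Figure D4:**
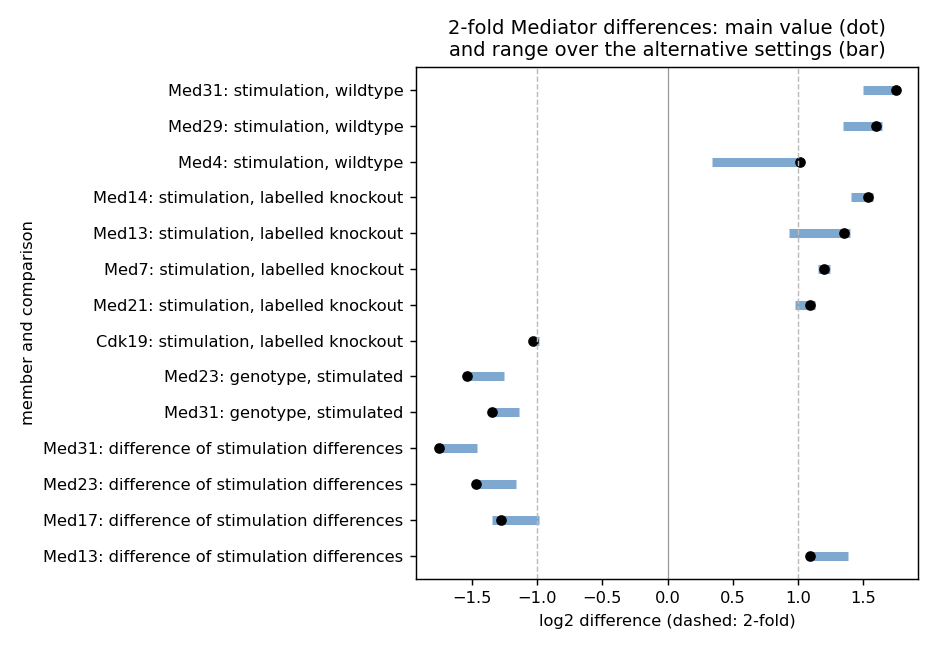
Log2 difference (horizontal) of each member past 2-fold in the comparison named (vertical), with the reported value as a dot and the range over the alternative settings as a bar; dashed lines mark 2-fold. Med4 in wildtype reaches down to 0.35, while Med23 in the stimulated genotype pair stays between -1.54 and -1.25 and Med31 in wildtype between 1.503 and 1.75.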

How the data were processed

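Total RNA from 4 samples, 1 in each group, was labelled with Cy3 and read on 1-colour Agilent arrays. The main values start from the deposited spot intensity, on a linear scale, as written by Agilent Feature Extraction 10.7.3.1, the version in the submitters' processing notes. Per the file headers, no normalization between arrays was applied, and detection or saturation flags are not among the columns. Per the file headers, the authors also deposited log2 values from GeneSpring GX 11.5.1. They cover 17878 of 39429 probes. Their normalization is unstated, and they lay within an SD of 0.0237 of quantile-normalized log2 intensities. They served as an alternative.

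Controls (1377 of 44397 spots) were left out, and log2 spot values were averaged per probe. Each array's 75th percentile (raw signal 243.7 to 680.8) was subtracted. A floor was set at -5.01 on this log2 scale, the median of the 4 arrays' 40th percentiles. Accessions were matched without version to RefSeq (GRCm38.p6), which named 26299 probes. Probes of a gene were averaged: 19 members had 1 probe and 13 several. Probe positions are not given, so no probe is placed on the genome. Genes at the floor in all arrays of a comparison were not counted as measured there.

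With 1 array per group no test was run and no p-value is given, and precision is limited by the number of arrays. Differences were computed with Python 3.11.15, numpy 2.4.6 and pandas 2.3.3, by code checked on simulated data. Alternatives were other scalings, the authors' table, other floors, a pseudocount of 16 on the linear signal, and the brightest probe per gene.

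The members and all lists were chosen with earlier results of these data known. Values in every array are given for Med23, for members past 2-fold in any pairwise comparison or past 1.5-fold the same way in both genotypes or states, and for paralog pairs. Other members are given by ranges and counts, and the single differences printed for some of them (Ccnc and head, middle and tail members) were chosen after they were seen. Each other list is given by at most its 2 highest and 2 lowest genes past 2-fold in a stimulation comparison. Marker genes may also be named. Some items are not reported here.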

Additional observations from a re-analysis of the deposited data

Results flagged for a closer look

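Of the members, 9 had stimulation differences of opposite sign in wildtype and labelled knockout, each from 1 array per group, and for none was the difference between the genotypes tested. The members are at the background here: 71% of them and 69.2% of all genes kept the sign. As the stimulation difference in the labelled knockout minus that in wildtype, the values were -1.76 for Med31, whose labelled knockout value was about 0 and changed sign with the scaling, -1.47 for Med23, -1.28 for Med17 and -0.67 for Med18. These 4 had the stimulated wildtype array highest, a pattern partly fixed by how they were picked. The other 5 were lower after stimulation in wildtype and higher in the labelled knockout: Med15 (0.74), Med27 (0.69), Med22 (0.42), Med10 (0.32) and Med28 (0.18, from 3 probes that disagree). All 9 rest on the stimulated wildtype array, which carries the summed neutrophil signal of 7.82, and its part in them was not tested.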

How the results depend on the processing

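Of the values for the medians over all members, the counts and Med23 under the 7 alternatives, 147 stayed within the limits set for them and 21 moved. The limit was the spot noise SD of single probes for a median or Med23, and a 1.5-fold change for a count. It is wide for a median: the stimulated genotype median went from 0.28 to 0.48 with median scaling and stayed within it. The 147 also include Med23 values that the floors and the brightest probe could not change. The unstimulated genotype median, 0.02, changed sign within those limits, with a range of -0.062 to 0.035. Medians of single modules were set apart from these: in wildtype the tail turned to -0.099 in the authors' table and the head to -0.019 with median scaling, and the tail in the stimulated genotype pair turned to 0.12 in the authors' table. The scaling moves all genes: the wildtype stimulation median of all genes was -0.02, and -0.23 with scaling to the array median, -0.11 with quantile normalization, -0.18 in the authors' table and -0.57 with the pseudocount. Relative to it the members were at 0.33, and at 0.29, 0.36, 0.38 and 0.77 under the same 4. The share of 2-fold calls that were higher moved with it, from 52.6% to 36.2% with median scaling, 41.6% in the authors' table and 18.8% with the pseudocount. In the stimulated genotype pair that share moved from 38% to 60%, 51.8% and 90.5%, and in the difference of stimulation differences from 39.9% to 66.9%, 52.6% and 90.3%. With the pseudocount the members lay 0.77 above all genes in wildtype, but -0.21 relative to them in the stimulated genotype pair.

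With scaling to the array median, the wildtype member median was 0.059 and that of the difference of stimulation differences 0.47. Members 2-fold lower in wildtype numbered 1 with median scaling (Med12) and 1 with the pseudocount (Med12l). In the labelled knockout, 2 were higher in the authors' table, and 0 lower with median scaling or the pseudocount. In the stimulated genotype pair 1 was higher with median scaling or quantile normalization (Med13), with the 20th percentile floor or the pseudocount (Med12l), and by the brightest probe (Cdk8). For the difference of stimulation differences the count higher was 3 with median scaling, 2 with the 20th percentile floor or the pseudocount, 4 by the brightest probe, and 0 in the authors' table or with the 60th percentile floor. Past 1.5-fold lower in both genotypes there was 1 with median scaling (Cdk19), and 1 with quantile normalization or in the authors' table (Med12). Past 1.5-fold higher in both, the members were Med4, Med14 and Med29 with median scaling, and Med4, Med7 and Med29 by the brightest probe. In the authors' table Med4 joined Med7, Med14 and Med29.

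Signs held under every alternative for 24 of 31 members in wildtype, 29 of 32 in the labelled knockout, 22 of 31 and 30 of 32 in the unstimulated and stimulated genotype pairs, and 29 of 32 in the difference of stimulation differences. In wildtype Med20 and Med9 changed sign with median scaling, Med1 with median scaling or the brightest probe, and Cdk8 with the brightest probe. Med16 was at -0.10 in the authors' table, which lacks its brighter probe, and at 1.89 by that probe. No paired analysis was possible because each group has 1 array, and for the same reason no array could be left out. Signal over background limits Med13 and Med12l, which lie near the floor.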
